A study of Mus musculus with 20 samples.

Results

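The genes described here code for the core of the basement membrane and for helpers of its assembly. Members were chosen by name and matched by mouse symbol: the laminin chains Lama1, Lama5, Lamb1 and Lamc1, the collagen IV chains Col4a1 and Col4a2, nidogen 1 (Nid1), perlecan (Hspg2), Sparc and the collagen chaperone Serpinh1. All 10 members were found, out of 30265 genes in each of the 2 deposited count tables, and all 10 passed the filter on low counts in both experiments.

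The study asked what Klf5, a zinc finger transcription factor, does to cell fate in mouse embryonic stem cells (ESCs) and preimplantation embryos, and measured polyadenylated RNA by sequencing in 20 libraries. In the first experiment, ESCs of C57BL/6J origin that overexpressed Klf5 (2 libraries) were set against ESCs of the same origin that overexpressed GFP (2 libraries). Both were grown with the cytokine LIF on irradiated mouse embryonic fibroblast feeders. In the second, embryos at embryonic day 4.5 treated with Klf5 siRNA (6 libraries) were set against embryos treated with scramble siRNA (10 libraries). All embryos were cultured in KSOM medium with albumin, and their strain is spelled C57BL/5J in the labels. Each embryo library is numbered as a separate embryo. The labels name no promoter or vector for the transgenes, and do not say whether the ESC libraries came from separate cultures or clones, so p-values in ESCs measure the spread between these libraries, which may be technical.

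A basement membrane is a thin sheet of matrix under epithelia. Laminin trimers of an alpha, a beta and a gamma chain polymerise at the cell surface, collagen IV trimers of alpha chains form a covalent network, and nidogen and perlecan link the laminin and collagen networks. In the mouse blastocyst, primitive endoderm is known as a strong producer of these proteins: its visceral derivative lays down the membrane beside the epiblast, and its parietal derivative secretes the thick membrane that lines trophoblast. Trimers are folded in the endoplasmic reticulum with the help of Serpinh1, the collagen-specific chaperone also called Hsp47.

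Positions are from GENCODE M21 on GRCm38, the assembly that mm10 uses. The laminin alpha genes lie apart, Lama1 at chr17:67697259-67822647 on the plus strand and Lama5 at chr2:180176373-180225859 on the minus strand. Lamb1 lies at chr12:31265234-31329644 (plus) and Lamc1 at chr1:153218922-153332786 (minus). Nid1 lies at chr13:13437551-13512269 (plus), Hspg2 at chr4:137468769-137570630 (plus), Sparc at chr11:55394500-55423183 (minus) and Serpinh1 at chr7:99345376-99353239 (minus). Col4a1 at chr8:11198423-11312826 (minus) and Col4a2 at chr8:11312805-11449287 (plus) are divergent neighbours whose annotated first exons overlap by 22 bases. Those bases are shown because they are the only annotated exon sequence that the 2 collagen chains share on opposite strands, at chr8:11312805-11312826, given on the plus strand:

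Col4a1 and Col4a2: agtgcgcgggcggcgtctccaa

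They make up 0.295% of the Col4a1 exon bases and 0.332% of those of Col4a2. Neither library kit named in the labels is known to mark strand, so reads from these bases cannot be assigned by strand. Col4a2 shares another 43 exon bases with the antisense gene Gm15419, and Nid1 shares 143 (2.06% of its exon bases) with the antisense gene Gm48682.

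Klf5 is known to bind GC-rich boxes and CACCC boxes, so the 250 bases upstream of the annotated start were read for GGGCGG (or CCGCCC on the other strand) and CACCC (or GGGTG). RefSeq windows on GRCm38.p6 were at hand for 8 of 10 members, all but Lama1 and Lamc1. Shown are the windows of Lama5, the member that passed the test in ESCs, at chr2:180225860-180226109, and of Serpinh1, which had the opposite direction there, at chr7:99353240-99353489. Both are on the minus strand, written 5′ to 3′ as transcribed, with the matches in capitals:

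Lama5: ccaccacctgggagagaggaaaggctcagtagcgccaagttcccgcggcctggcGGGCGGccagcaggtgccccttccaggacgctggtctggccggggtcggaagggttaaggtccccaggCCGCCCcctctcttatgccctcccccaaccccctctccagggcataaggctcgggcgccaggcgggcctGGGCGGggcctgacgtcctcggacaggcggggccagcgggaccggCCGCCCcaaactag

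Serpinh1: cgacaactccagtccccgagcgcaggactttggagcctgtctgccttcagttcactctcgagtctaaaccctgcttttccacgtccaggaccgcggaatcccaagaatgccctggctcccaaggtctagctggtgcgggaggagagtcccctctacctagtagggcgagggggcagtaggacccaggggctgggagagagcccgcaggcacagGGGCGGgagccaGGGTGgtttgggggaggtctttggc

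The Lama5 window held 4 GC boxes and 0 CACCC boxes, and the Serpinh1 window held 1 of each. Hspg2, which was not called, held 5 GC boxes and 3 CACCC boxes. Of 32851 promoter windows of the same length, 32.7% held at least 1 GC box, 52.0% held at least 1 CACCC box, and 4.09% held as many GC boxes as Lama5. Among the 8 members, 6 held a GC box and 6 a CACCC box. These matches describe letters, not bound sites.

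Library totals were 26775363 to 37482631 counts in ESCs and 14701519 to 24939629 counts in embryos, so that 3 counts, taken as the floor of detection, stand for 0.0799 to 0.119 counts per 1000000 of the TMM-scaled library size (CPM) in ESCs and 0.0905 to 0.258 CPM in embryos. These floors reflect counting error alone, because reads copied by PCR do not stand for separate molecules. The targeted gene was measured first. Klf5 stood at 942 and 882 CPM in the Klf5 ESC libraries, against 80.5 and 70.8 CPM in the GFP libraries (fitted log2 difference 3.59 ± 0.14 SE; adjusted p = 0.000323 in edgeR). In embryos it stood between 80.8 and 543 CPM after Klf5 siRNA, against 382 to 592 CPM in scramble embryos, a fitted log2 difference of -1.07 ± 0.33 SE (adjusted p = 0.0273 in edgeR). The value of 543 CPM belongs to the library labelled Klf5 siRNA embryo 1, which goes against its label; Lamc1, Lama5 and Serpinh1 are given without it as well. Over 16 fits that each left out 1 embryo, the Klf5 log2 difference ran from -1.56 to -0.907 (edgeR adjusted p 0.00130 to 0.0672). Leaving out any 1 of Klf5 siRNA embryos 2, 3, 4 or 5 left Klf5 itself short of the threshold. The share of mitochondrial transcripts was 2.45% to 10.3% in Klf5 siRNA embryos and 4.34% to 18.5% in scramble embryos. All scramble libraries also carry lower library numbers than all Klf5 siRNA libraries in the table header, so that library order and treatment cannot be told apart.

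In ESCs, overexpressed Klf5 went with lower Lama5, at an estimated 1.87-fold, and no member passed the test in the higher direction. Lama1, Lamc1 and Serpinh1 had higher values in both Klf5 libraries than in either GFP library and did not pass the test. Col4a1, Col4a2, Lamb1 and Sparc were high in Klf5 replicate 2 and close to the GFP libraries, or below them, in Klf5 replicate 1.

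By edgeR's quasi-likelihood test with Benjamini-Hochberg adjustment over 15968 genes, 1 of the 10 members passed the threshold of 0.05, against 2.78% of all genes tested (1.67% higher and 1.11% lower). At an unadjusted p under 0.05 there were 2 higher members and 1 lower, against 23.2% of all genes in either direction, and DESeq2 called 1 member higher and 1 lower. Groups did not overlap for 4 members, 3 higher and 1 lower in Klf5 ESCs, against 56.4% of all genes (28.9% higher and 27.4% lower). 8 of 10 members had a fold change above 0 on the log2 scale, against 49.6% of all genes. The members' median log2 fold change was 0.57, against -0.00 over all genes; it was 0.87 without Klf5 replicate 1 and 0.049 without Klf5 replicate 2.

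Lama5, the alpha chain of the laminin made by many mature epithelia and a substrate on which pluripotent cells grow, stood at 994 and 1169 CPM in Klf5 ESCs, against 2240.3 and 1799 CPM in GFP ESCs. Both Klf5 libraries lay below both GFP libraries (log2 fold change -0.90 ± 0.16 SE, edgeR adjusted p = 0.0412). This call was close to the threshold. It was lost without Klf5 replicate 1 (adjusted p = 0.0853), without GFP replicate 1 (0.250) and without GFP replicate 2 (0.0590), and with the gene-length offset (0.0514), while the log2 fold change stayed between -1.05 and -0.74 in those fits.

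Lama1 codes for the alpha chain of the laminin of the earliest embryonic basement membranes. It stood at 257 and 623 CPM in Klf5 ESCs, against 152 and 98.0 CPM in GFP ESCs. The groups did not overlap, yet the Klf5 libraries differed from each other by more than the lower of them differed from the higher GFP library (log2 fold change 1.82 ± 0.54 SE, edgeR adjusted p = 0.175). Lamc1, the gamma chain that pairs with either alpha chain, stood at 609 and 847 CPM in Klf5 ESCs, against 499.8 and 440.2 CPM in GFP ESCs. Here too the groups did not overlap, and the difference missed the threshold (log2 fold change 0.63 ± 0.18 SE, edgeR adjusted p = 0.0972). DESeq2 called Lamc1 higher (adjusted p = 0.00749). The beta chain Lamb1 stood at 421 and 859 CPM in Klf5 ESCs and at 593 and 461 CPM in GFP ESCs. Its Klf5 libraries lay on either side of both GFP libraries, and the fitted difference was smaller than its error (log2 fold change 0.28 ± 0.37 SE, edgeR adjusted p = 0.696).

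Both collagen IV chains followed one pattern across the ESC libraries. Col4a1 stood at 780.4 and 2326 CPM in Klf5 ESCs and at 884 and 591 CPM in GFP ESCs. Col4a2 stood at 488 and 1326 CPM in Klf5 ESCs and at 580.1 and 392 CPM in GFP ESCs. For each chain, Klf5 replicate 2 was above both GFP libraries and Klf5 replicate 1 lay between them. The log2 fold changes were 1.07 ± 0.62 SE for Col4a1 and 0.90 ± 0.58 SE for Col4a2, with edgeR adjusted p of 0.391 and 0.431. The chaperone Serpinh1 stood at 553 and 1313 CPM in Klf5 ESCs, against 479 and 442 CPM in GFP ESCs. Both Klf5 libraries were higher, by far the more so in replicate 2 (log2 fold change 1.02 ± 0.44 SE, edgeR adjusted p = 0.266). Sparc, a secreted collagen-binding glycoprotein, stood at 482 and 877 CPM in Klf5 ESCs and at 471 and 487 CPM in GFP ESCs. Klf5 replicate 1 lay within the GFP range and replicate 2 above it (log2 fold change 0.50 ± 0.28 SE, edgeR adjusted p = 0.338).

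The linker genes differed little. Nid1 stood at 271 and 230.4 CPM in Klf5 ESCs and at 245 and 240.2 CPM in GFP ESCs. Its groups overlapped, with a log2 fold change of 0.05 ± 0.12 SE (edgeR adjusted p = 0.846). Hspg2, the heparan sulphate proteoglycan perlecan, stood at 1397 and 1849 CPM in Klf5 ESCs and at 2066 and 1701 CPM in GFP ESCs, again with overlap (log2 fold change -0.21 ± 0.18 SE, edgeR adjusted p = 0.512).

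**Figure D1:**
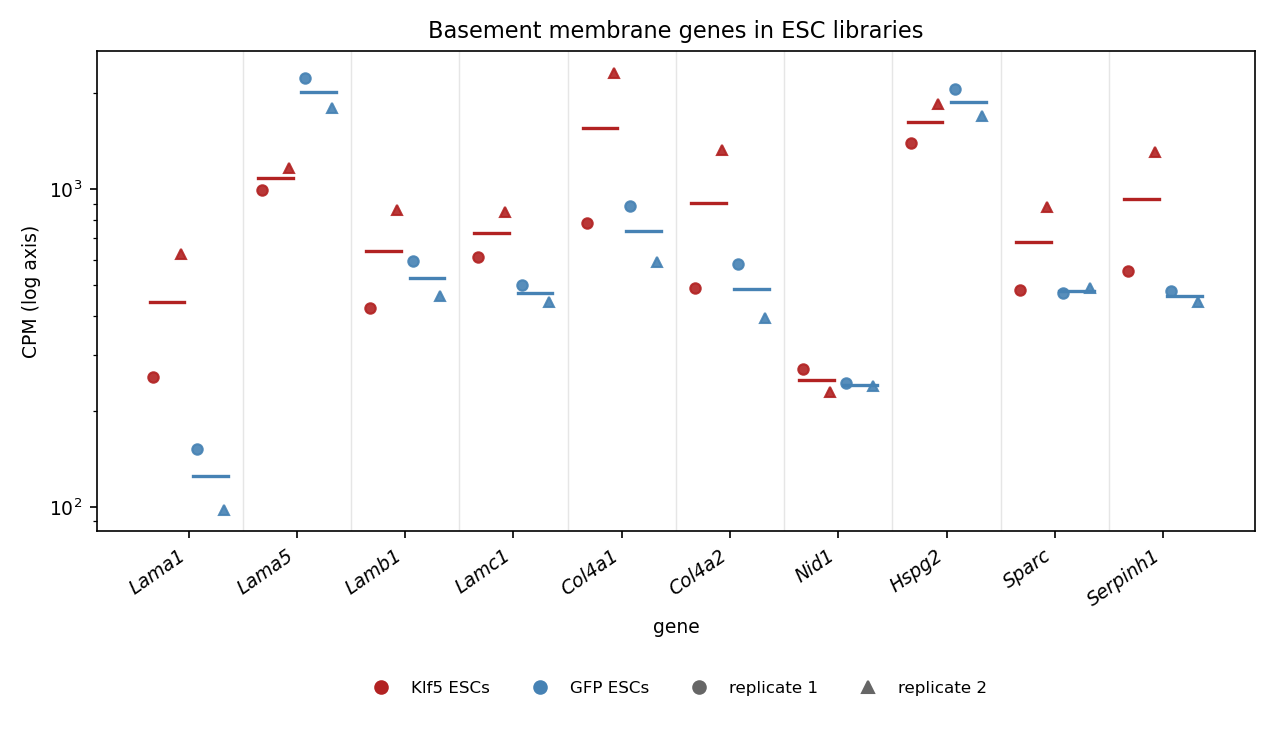
CPM (log axis) of the 10 basement membrane genes in each ESC library, Klf5 in red left of GFP in blue, with circles for replicate 1, triangles for replicate 2 and a line at each mean (n = 2 each). Lama5 lies lower in both Klf5 libraries (994 and 1169 CPM) than in GFP (2240.3 and 1799 CPM), and the Klf5 replicates lie far apart for Col4a1 (780.4 and 2326 CPM).

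How many members were called depended on which Klf5 library was kept. Without Klf5 replicate 1, Lama1, Lamc1, Col4a1, Col4a2, Sparc and Serpinh1 passed the edgeR test in the higher direction, with adjusted p between 0.00310 for Serpinh1 and 0.0372 for Col4a2, and Lama5 did not. In such fits the remaining Klf5 library was assumed to vary as the GFP libraries did. Without Klf5 replicate 2, Lama5 (log2 fold change -1.02, edgeR adjusted p = 0.0339) was called and no other member was; Col4a1 had a log2 fold change of 0.09 and Col4a2 of 0.01. Markers of primitive endoderm moved along with the same library. Their summed level over 14 genes was 219 and 534 CPM in Klf5 ESCs, against 104 and 95.9 CPM in GFP ESCs, and 4 of 14 rose while 0 fell (11 higher and 0 lower at an unadjusted p under 0.05, and 10 higher and 0 lower by DESeq2), with a median log2 fold change of 2.15 against -0.00 over all genes. Sox7, an endoderm transcription factor, was 10.3-fold higher, Hnf4a, a regulator of visceral endoderm, 9.19-fold, the endocytic receptor Cubn 7.70-fold and the adaptor Dab2 4.95-fold. These 4 calls were lost without either GFP library (edgeR adjusted p up to 0.388), and 11 of the 14 rose without Klf5 replicate 1. Defining markers were above the floor: Gata6 stood at 16.0 and 36.4 CPM in Klf5 ESCs, against 5.69 and 4.80 CPM in GFP ESCs. A higher sum in Klf5 replicate 2 than in replicate 1 was not particular to these markers. Trophectoderm markers (312 CPM in replicate 1 and 677 CPM in replicate 2) and collagen folding and secretion genes (5351 and 6707 CPM) also had it. Epiblast markers did not (5730 and 5357 CPM). In a bulk library, more cells of a type and more RNA per cell cannot be told apart, and the part of endoderm-like cells in the members' levels was not tested.

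Fibroblast feeders also make collagen IV, laminin, Sparc and Serpinh1. The 18 fibroblast markers summed to 1747 and 1761 CPM in Klf5 ESCs, against 1130 and 1339 CPM in GFP ESCs, and 1 of the 16 tested rose, the collagen chain Col1a2 (1.72-fold, edgeR adjusted p = 0.0347), while 0 fell (median log2 fold change 0.38; 9 higher and 0 lower at an unadjusted p under 0.05, and 5 higher and 0 lower by DESeq2). Col1a2 stood between 323 and 353 CPM in Klf5 ESCs and between 181 and 213 CPM in GFP ESCs. The part of feeder RNA in the higher level of both Klf5 libraries was not tested. Without GFP replicate 1 or GFP replicate 2, Col1a2 missed the threshold (adjusted p up to 0.232). Of 4 parietal endoderm markers 0 rose and 0 fell by edgeR, 1 had an unadjusted p under 0.05 and DESeq2 called 1 higher. That gene with the smallest p was Pth1r, the parathyroid hormone receptor of parietal endoderm, at 9.17 and 35.1 CPM in Klf5 ESCs, against 2.90 to 4.02 CPM in GFP ESCs (edgeR adjusted p = 0.162). Thbd, Stra6 and Snai1 had log2 fold changes of -0.24, -0.04 and -0.18, and the list's median was -0.11. The 4 markers summed to 74.4 and 138 CPM in Klf5 ESCs, against 108 and 91.5 CPM in GFP ESCs. Trophectoderm markers summed to 312 and 677 CPM in Klf5 ESCs, against 1831 and 885 CPM in GFP ESCs, with 0 of 12 called by edgeR, 5 lower and 1 higher at an unadjusted p under 0.05, and 3 called lower by DESeq2; Id2 had the smallest p (edgeR adjusted p = 0.0561). Epiblast markers summed to 5730 and 5357 CPM in Klf5 ESCs, against 4535 and 4683 CPM in GFP ESCs, with 1 of 11 lower, the germline and naive-state gene Dppa3 (4.02-fold, edgeR adjusted p = 0.0285; 0.122 without GFP replicate 1), and 0 higher. At an unadjusted p under 0.05, 5 epiblast markers were higher and 1 lower, and DESeq2 called 5 higher and 1 lower.

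Other parts of the basement membrane system did not pass the test in ESCs. Of 28 tested among 30 other basement membrane genes, 0 were called by edgeR, 5 were higher and 4 lower at an unadjusted p under 0.05, and DESeq2 called 3 higher and 3 lower. Smoc2, a secreted calcium-binding matrix protein, came closest, at 7.32 to 7.70 CPM in Klf5 ESCs and 12.2 to 15.4 CPM in GFP ESCs (edgeR adjusted p = 0.0589). Of 21 tested receptors and linkers 0 were called, 2 were higher and 5 lower at an unadjusted p under 0.05, and DESeq2 called 2 higher and 1 lower; the collagen receptor Ddr1 had the smallest p (edgeR adjusted p = 0.0829). Among 26 collagen folding and secretion genes 0 were called, 3 were higher and 1 lower at an unadjusted p under 0.05, and DESeq2 called 1 lower. The chaperone calreticulin, Calr, came closest there (edgeR adjusted p = 0.124). Among 14 matrix turnover genes 0 were called, with 3 higher and 3 lower at an unadjusted p under 0.05 and 2 each by DESeq2, and the protease Adamts1 came closest (edgeR adjusted p = 0.0623). The median log2 fold changes of these 4 lists were -0.11, -0.12, 0.05 and -0.14.

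In E4.5 embryos, Klf5 siRNA went with lower Lamc1, the gamma chain, at an estimated 2.86-fold. The other 9 members did not pass the test, and their levels varied widely from embryo to embryo. Lama1, Col4a1 and Sparc were each low in some Klf5 siRNA embryos and within or above the scramble range in embryos 5 and 6. By edgeR over 12385 genes, 0 members were called higher and 1 was called lower, against 19.8% of all genes called (12.0% higher and 7.74% lower). At an unadjusted p under 0.05 there were 0 higher and 1 lower, against 33.2% of all genes, and DESeq2 also called 0 higher and 1 lower. In none of the 10 did the groups separate without overlap, against 4.81% of all genes (2.91% higher and 1.91% lower). 9 of 10 members had a log2 fold change below 0, against about as many genes above as below 0 in the whole table (49.8% above). The members' median was -0.55, against -0.01 over all genes; without Klf5 siRNA embryo 5 it was -1.46.

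Lamc1 stood at 12.1, 13.4, 16.0, 12.5, 24.4 and 23.6 CPM in Klf5 siRNA embryos 1 to 6, against a lowest value of 22.1, a median of 39.1 and a highest of 110.05 CPM in scramble embryos. Embryos 1 to 4 lay below every scramble embryo, and embryos 5 and 6 just inside their range. Klf5 itself stood at 543, 111, 195, 80.8, 117 and 292 CPM in Klf5 siRNA embryos 1 to 6. The lowest Lamc1 was thus in embryo 1, which had the group's highest Klf5, and the group's highest Lamc1 was in embryo 5. Whether members' levels follow the remaining Klf5 was not tested. The Lamc1 log2 fold change was -1.51 ± 0.37 SE (edgeR adjusted p = 0.00710), and it was -1.46 (adjusted p = 0.0175) without the library labelled Klf5 siRNA embryo 1. The call held in each of 16 fits that left out 1 embryo (adjusted p 0.00565 to 0.0185). It was lost with the mitochondrial share as a covariate (log2 fold change -1.32, edgeR adjusted p = 0.0787).

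Lama1 stood at 4.55, 0.146, 7.22, 0.0560, 74.8 and 48.2 CPM in Klf5 siRNA embryos 1 to 6, against 13.7, 56.7 and 177 CPM as the lowest, median and highest of the scramble embryos. Embryos 1 to 4 were below all scramble embryos, with embryos 2 and 4 at 2 counts and 1 count, under the floor of 3 counts, while embryos 5 and 6 were near the scramble median. With that spread the log2 fold change was -1.51 ± 0.92 SE (edgeR adjusted p = 0.263). The alternative alpha chain Lama5 ran from 1.31 CPM through a median of 12.8 to 92.3 CPM in Klf5 siRNA embryos, and from 16.4 CPM through 24.4 to 42.8 CPM in scramble embryos. Klf5 siRNA embryos 2, 3 and 4 were below, and embryo 1 above, all scramble embryos (log2 fold change -0.12 ± 0.55 SE, edgeR adjusted p = 0.905). Without the library labelled Klf5 siRNA embryo 1 the Lama5 log2 fold change was -1.31 (edgeR adjusted p = 0.0520). The beta chain Lamb1 ran from 22.0 CPM through a median of 38.2 to 107 CPM in Klf5 siRNA embryos, and from 21.2 CPM through 49.2 to 82.5 CPM in scramble embryos. The ranges of this chain largely coincided (log2 fold change -0.07 ± 0.34 SE, edgeR adjusted p = 0.916).

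Col4a1 ran from 0.672 CPM through a median of 16.8 to 92.8 CPM in Klf5 siRNA embryos, and from 12.4 CPM through 62.0 to 86.0 CPM in scramble embryos. Col4a2 ran from 0.280 CPM through 15.4 to 101 CPM in Klf5 siRNA embryos, and from 10.4 CPM through 41.3 to 78.8 CPM in scramble embryos. For both chains Klf5 siRNA embryo 4 was lowest and embryo 5 highest of all 16 embryos. The log2 fold changes were -0.96 ± 0.64 SE and -0.60 ± 0.67 SE, with edgeR adjusted p of 0.311 and 0.566. Without Klf5 siRNA embryo 5, Col4a1 passed (log2 fold change -1.88, edgeR adjusted p = 0.0451). Sparc ran from 1.85 CPM through 30.8 to 262 CPM in Klf5 siRNA embryos, and from 34.0 CPM through 79.4 to 130.4 CPM in scramble embryos. The lowest and the highest embryo both belonged to the Klf5 siRNA group (log2 fold change -0.17 ± 0.65 SE, edgeR adjusted p = 0.886).

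Serpinh1 was barely detected in embryos. It was at 4.04 CPM in the library labelled Klf5 siRNA embryo 1 and at 0 in the other 5 Klf5 siRNA embryos, against 0 in 4 of 10 scramble embryos, a median of 1.50 and a highest value of 9.32 CPM. The log2 fold change was -1.87 ± 1.64 SE (edgeR adjusted p = 0.456). Without embryo 1 every Klf5 siRNA embryo was at 0, which allows up to 3 counts, or 0.130 to 0.218 CPM, per library, and the edgeR adjusted p was then 0.0247. Hspg2 was also low, from 0 CPM through 0.459 to 10.8 CPM in Klf5 siRNA embryos, and from 0.0327 CPM through 1.76 to 5.13 CPM in scramble embryos (log2 fold change 0.37 ± 1.10 SE, edgeR adjusted p = 0.851). Nid1 was detected in every embryo, from 28.4 CPM through 48.9 to 71.9 CPM in Klf5 siRNA embryos, and from 38.5 CPM through 66.2 to 115 CPM in scramble embryos. Klf5 siRNA embryos 1, 2 and 3 lay below all scramble embryos (log2 fold change -0.50 ± 0.29 SE, edgeR adjusted p = 0.236).

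**Figure D2:**
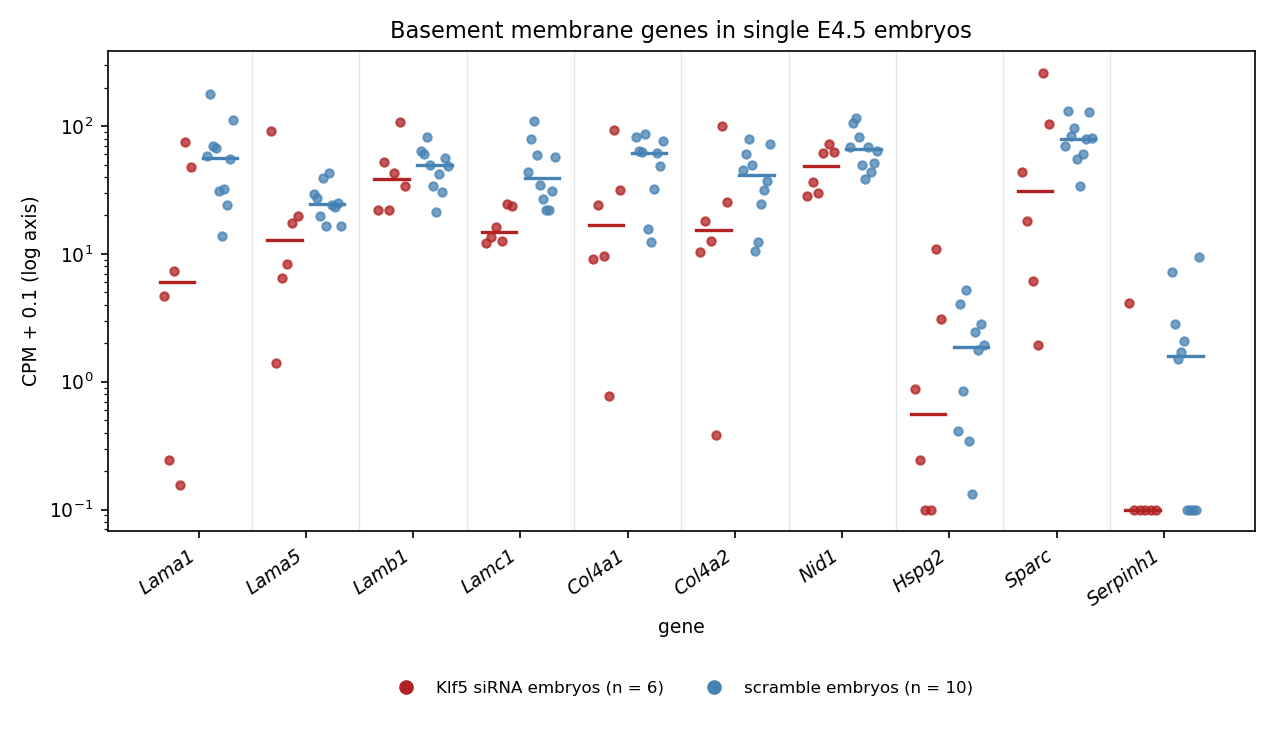
CPM plus 0.1 (log axis) of the 10 genes in single embryos, Klf5 siRNA in red (n = 6) left of scramble in blue (n = 10), with a line at each group's median. Lamc1 values lie at 12.1 to 24.4 CPM after Klf5 siRNA, against 22.1 to 110.05 CPM after scramble siRNA, and Lama1 spreads over 0.0560 to 74.8 CPM after Klf5 siRNA.

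**Figure D3:**
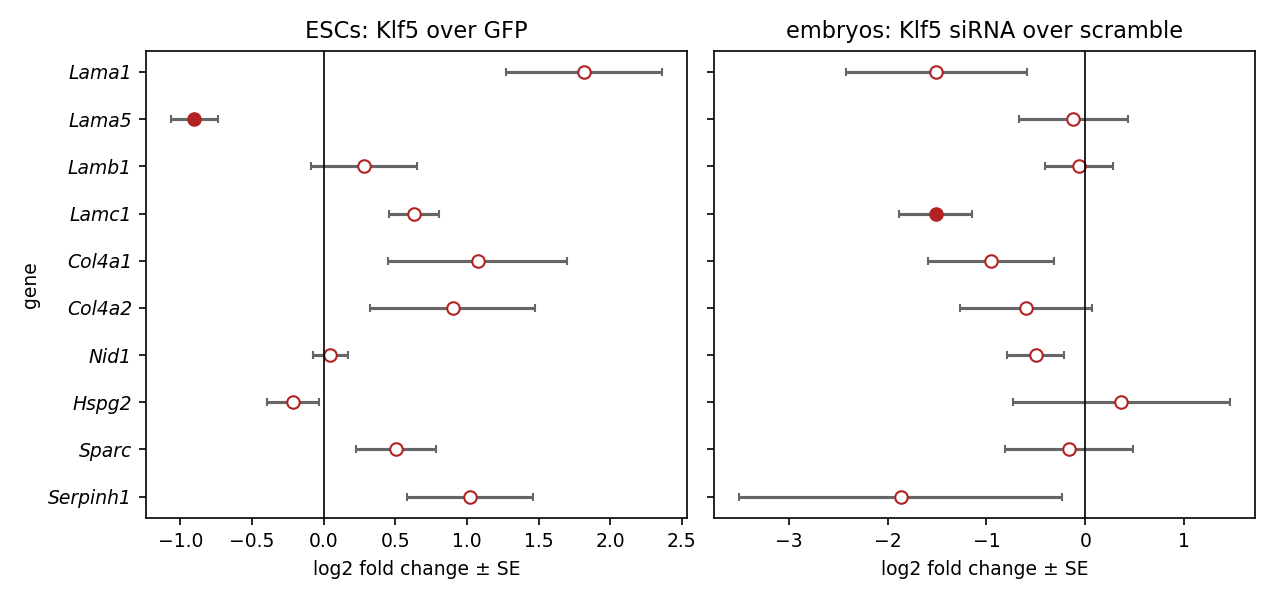
Fitted log2 fold change ± SE of each gene, for Klf5 over GFP ESCs on the left and Klf5 siRNA over scramble embryos on the right, with filled points at an edgeR adjusted p under 0.05 and a line at 0. Lama5 is filled in ESCs (-0.90) and Lamc1 in embryos (-1.51).

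The Klf5 siRNA embryos differed from each other across several members. Embryo 4 was low in Lama1, Col4a1, Col4a2, Sparc and Hspg2 together, and kept Nid1 at 61.1 CPM and Lamb1 at 42.8 CPM, within the scramble ranges. Embryo 5 was above the scramble median for Lama1, Lamb1, Col4a1, Col4a2, Nid1, Hspg2 and Sparc. In embryo 4 the primitive endoderm genes Gata6, Sox17 and Gata4, named after their values were seen, stood at 7.50, 0.0560 and 0.168 CPM, against 41.8 to 124, 6.97 to 47.0 and 1.47 to 17.4 CPM in scramble embryos. Of all 14 primitive endoderm markers, 8 lay below every scramble embryo in embryo 4, 5 lay within the scramble range and 1 lay above it. Lrp2, an endocytic receptor, made up most of the list's sum there, at 330 of 581 CPM. The parietal endoderm markers summed to 12.4 CPM in embryo 5 and 38.4 CPM in embryo 6, to 0 to 0.510 CPM in the other 4 Klf5 siRNA embryos and to 0 to 6.31 CPM in scramble embryos. In embryo 6 nearly all of that sum was Stra6 (37.7 CPM) and in embryo 5 most was Pth1r (7.94 CPM), and neither gene passed the filter. The markers' part in the members' levels was not tested.

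**Figure D4:**
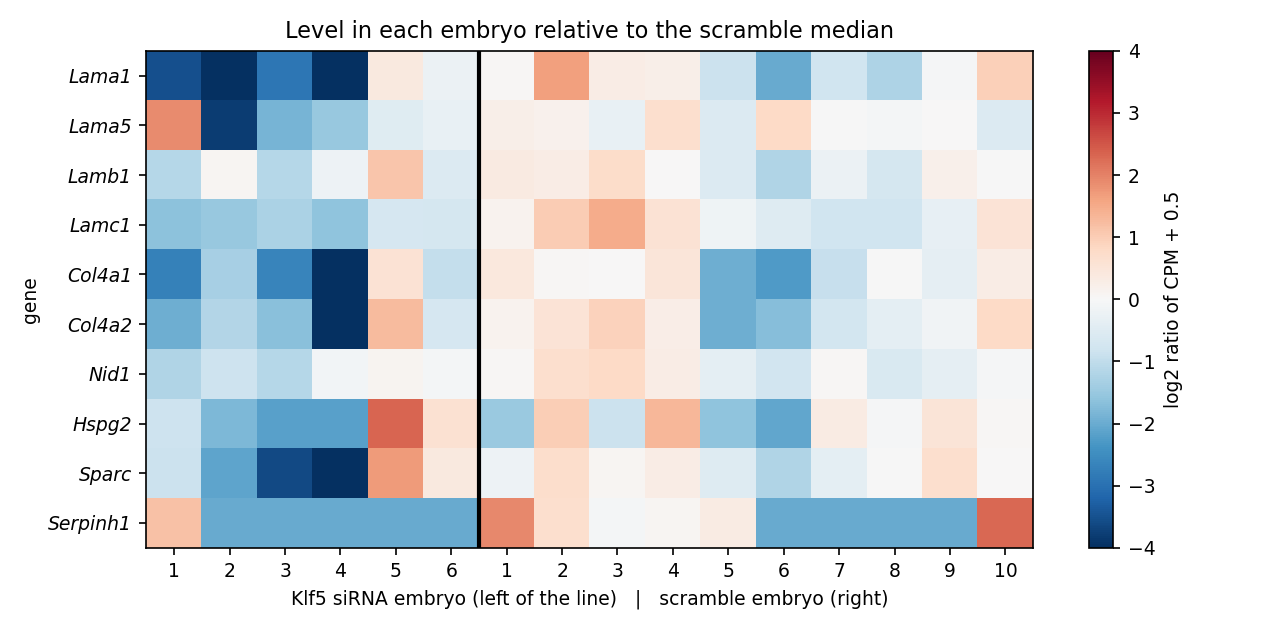
Level of each gene (rows) in each embryo (columns, Klf5 siRNA 1 to 6 left of the line and scramble 1 to 10 right of it) as the log2 ratio of CPM plus 0.5 to the scramble median, with red higher, blue lower and colours saturated at 4 in either direction. Klf5 siRNA embryo 4 is dark blue for Lama1, Col4a1, Col4a2 and Sparc (1.85 CPM), and Klf5 siRNA embryo 5 is red for Col4a2 (101 CPM) and Sparc (262 CPM).

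Counts per kilobase of exon, scaled to the same sum in every library, allow levels to be compared between genes. On that per-length scale Serpinh1 had the highest mean of the members in ESCs. It stood at 1008 ± 523 with Klf5 and 460.6 ± 0.632 with GFP (SD, n = 2 each). Its highest value in GFP ESCs, 461.1, was below the highest of Lama5, 461.8. Lama5 was sixth of 10 with Klf5, at 255 ± 12.2, and the second with GFP, at 432 ± 42.1. Lama1 was ninth with Klf5 at 120.0 ± 63.9 and lowest with GFP at 31.3 ± 7.77. Many neighbours in these orders had overlapping ranges. Examples are Lama5 and Lamc1 (235.1 ± 38.95) with Klf5, and Sparc (309 ± 25.1) and Hspg2 (321 ± 25.6) with GFP. With Klf5, Hspg2 (303 ± 39.9) lay above Lama5 without overlap. In embryos Sparc had the highest mean, at 25.9 ± 36.8 after Klf5 siRNA (n = 6) and 40.1 ± 14.7 after scramble siRNA (n = 10). Nid1 followed, at 9.92 ± 3.75 and 18.4 ± 6.70. After Klf5 siRNA the medians were close, at 10.2 for Sparc and 9.77 for Nid1, and Sparc ran from 0.745 to 96.8. In both embryo groups Serpinh1 was ninth and Hspg2 lowest by mean, and the members between them and Nid1 had overlapping ranges. The ESC and embryo libraries were made with different kits, so their levels are given side by side and were not compared.

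Ratios of chain transcripts within a library do not depend on scaling between libraries. The per-length ratio of Lama1 to Lama5 was 0.304 and 0.628 in Klf5 ESCs, against 0.0796 and 0.0641 in GFP ESCs. Both Klf5 libraries were higher, and Lama5 still exceeded Lama1 in every ESC library. In embryos the ratio ran from 0.00806 through a median of 0.724 to 5.03 after Klf5 siRNA, against 0.377, 2.28 and 7.97 after scramble siRNA; it was below all scramble embryos in Klf5 siRNA embryos 1, 2 and 4, with the Lama1 count under the floor in embryos 2 and 4. The ratio of Lamb1 to Lamc1, the chains that both laminins share, was 0.576 and 0.846 in Klf5 ESCs, against 0.990 and 0.873 in GFP ESCs, and 1.15 to 3.66 (median 2.18) in Klf5 siRNA embryos, against 0.626 to 1.58 (median 0.761) in scramble embryos. Klf5 siRNA embryos 2, 4 and 5 lay above every scramble embryo. For Nid1 to Lamc1, the ratio was 2.22 to 5.80 (median 3.22) after Klf5 siRNA, against 1.24 to 3.72 (median 1.71) after scramble siRNA, with overlap. The ratio of Col4a2 to Col4a1 was 0.643 and 0.705 in Klf5 ESCs, against 0.740 and 0.749 in GFP ESCs, and in embryos 0.470 to 1.50 (median 1.07) after Klf5 siRNA, against 0.576 to 1.43 (median 0.863) after scramble siRNA. Across embryos the collagen ratio spanned a narrower range than that of the laminin alpha chains. The ratios were not tested.

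**Figure D5:**
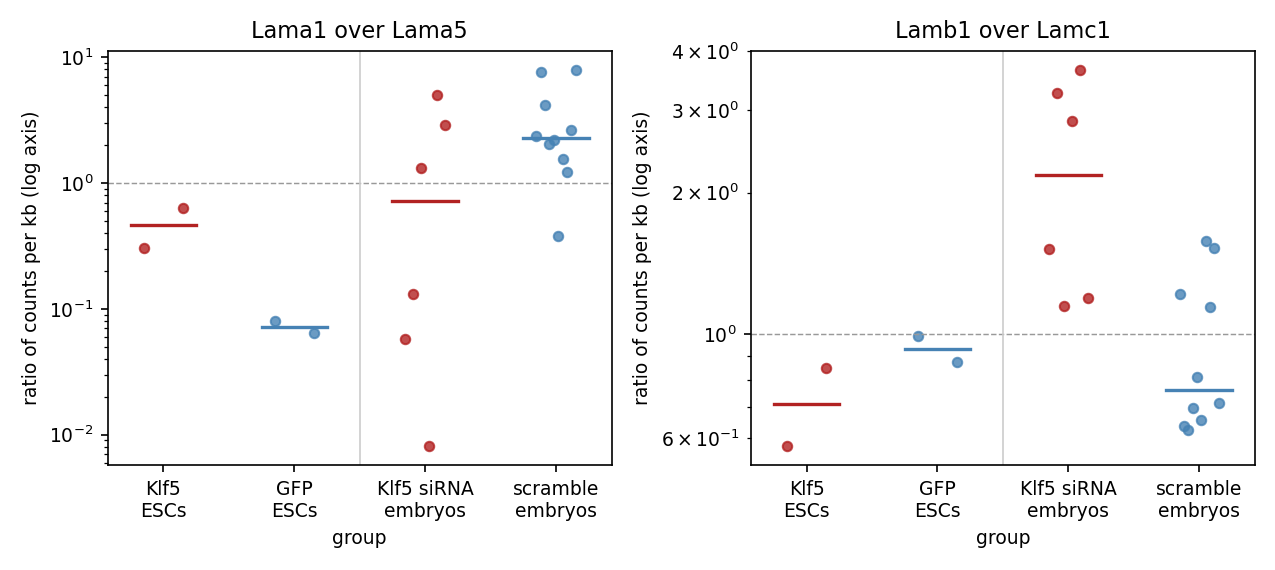
Ratios of per-length levels between chains in each library (log axes), for Klf5 and GFP ESCs and for Klf5 siRNA and scramble embryos, with a line at each group's median and a dashed line at equal levels. The Lama1 to Lama5 ratio is 0.304 and 0.628 in Klf5 ESCs, against 0.0796 and 0.0641 in GFP ESCs, and the Lamb1 to Lamc1 ratio has a median of 2.18 in Klf5 siRNA embryos, against 0.761 in scramble embryos.

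Other genes of the basement membrane system in embryos were counted against a background of 12.0% of all genes called higher and 7.74% called lower. Of 15 tested among 30 other basement membrane genes, 4 fell and 0 rose (1 higher and 6 lower at an unadjusted p under 0.05, and 1 higher and 5 lower by DESeq2), with a median log2 fold change of -0.93. The matrix proteins Tinagl1 and Fbln1 were 2.63-fold and 3.68-fold lower (edgeR adjusted p = 0.0147 and 0.0199). Both calls held in each of 16 fits without 1 embryo, while that of Fras1, a protein of embryonic epithelial basement membranes (edgeR adjusted p = 0.0415), was lost in 13. Over all 29 alternatives, Fbln1 lost its call in 3 (edgeR adjusted p up to 0.0901) and Tinagl1 in 1 (0.0652). Of 17 tested receptors and linkers, 5 fell and 0 rose (0 higher and 7 lower at an unadjusted p under 0.05, and 0 higher and 5 lower by DESeq2), with a median of -0.65. Fermt2 (kindlin 2), which activates integrins, was 1.91-fold lower (edgeR adjusted p = 0.0100), a call that held in all 16 fits and was lost in 2 of the 29 alternatives (adjusted p up to 0.0839). Itga6, the alpha subunit of laminin receptors, was 1.93-fold lower, and lost its call without Klf5 siRNA embryo 4 or 5 (edgeR adjusted p up to 0.0551) and in 4 other alternatives. With the mitochondrial share as a covariate its log2 fold change was -0.29 (edgeR adjusted p = 0.522), against -0.95 without. Itga3, Parva and Itgav completed the 5; the calls of Itga3 and Parva were lost in 8 and 13 of those fits, and the list held between 1 and 5 lower genes over them.

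Of 24 tested collagen folding and secretion genes, 3 fell and 0 rose (3 higher and 4 lower at an unadjusted p under 0.05, and 1 higher and 3 lower by DESeq2), with a median of 0.16. These were Colgalt1, which glycosylates collagen, Crtap, a part of the prolyl 3-hydroxylation complex (2.22-fold lower), and the coat protein Sec31a (1.78-fold lower). Colgalt1 stood at 0 to 0.538 CPM after Klf5 siRNA and 0 to 21.6 CPM after scramble siRNA, and its call held in all 16 fits without 1 embryo and was lost in 2 other alternatives (adjusted p up to 0.170, with limma voom). Crtap was lost without Klf5 siRNA embryo 4 (edgeR adjusted p = 0.0519) and in 2 other alternatives (up to 0.149), and Sec31a in 11 of the fits. Of 7 tested matrix turnover genes 1 rose and 0 fell, with a median of -0.37 (2 higher and 1 lower at an unadjusted p under 0.05, and 3 higher and 1 lower by DESeq2). It was the lysosomal and secreted protease Ctsl, at 104 to 1827 CPM after Klf5 siRNA, against 135 to 340.2 CPM after scramble siRNA (2.87-fold, edgeR adjusted p = 0.0176). Its highest value was in Klf5 siRNA embryo 4, without which the adjusted p was 0.154, and it was lost in 7 of the 29 alternatives (edgeR or voom adjusted p up to 0.326).

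Lineage markers moved in the same embryos. Of 11 tested trophectoderm markers 8 fell and 0 rose (0 higher and 9 lower at an unadjusted p under 0.05 and by DESeq2), with a median log2 fold change of -1.63, among them Elf5 (14.9-fold), Lcp1 (5.91-fold), Fgfr2 (2.97-fold) and Eomes (3.09-fold); their sum was 246 to 3859 CPM after Klf5 siRNA, against 3273 to 9272 CPM after scramble siRNA. Of 12 tested primitive endoderm markers, Sox17 (11.3-fold) and the receptor Pdgfra (3.68-fold) fell and 0 rose, with a median of -1.04. At an unadjusted p under 0.05, 0 were higher and 4 lower, and DESeq2 called 0 higher and 3 lower. Cubn and Lrp2, which were not called, had log2 fold changes of 0.58 and 0.44, and the other tested markers had values below 0. The sum of all 14 listed was 557 to 899 CPM after Klf5 siRNA, against 662 to 945 CPM after scramble siRNA. All of these named calls held in each of 16 fits without 1 embryo; over all 29 alternatives, Eomes lost its call in 3 (edgeR adjusted p up to 0.0823) and Pdgfra in 2 (up to 0.0999). Of 11 epiblast markers Dppa3 (2.66-fold) and Klf2 (2.30-fold) rose and Fgf4 fell (4.33-fold), with a median of 0.53; Klf2 was lost without Klf5 siRNA embryo 5 (edgeR adjusted p = 0.116) and in 6 other alternatives and Fgf4 in 11 fits. The epiblast sum was 5189 to 15601 CPM after Klf5 siRNA, against 2325 to 6681 CPM after scramble siRNA; most of it was Dppa3, at 4612 to 15158 CPM after Klf5 siRNA, against 2076 to 6221 CPM after scramble siRNA. At an unadjusted p under 0.05, 5 epiblast markers were higher and 2 lower, and DESeq2 called 2 higher and 1 lower. Among those not called by edgeR, Sox2, Esrrb, Zfp42 and Tdgf1 had log2 fold changes below 0. Nanog (0.89), Pou5f1 (1.12), Otx2 (1.62) and Prdm14 (0.53) had log2 fold changes above 0. Of the 2 tested parietal endoderm markers 0 were called by edgeR, 0 at an unadjusted p under 0.05 and 0 by DESeq2, and Thbd came closest (edgeR adjusted p = 0.223). Fibroblast markers summed to 2.58 to 22.7 CPM after Klf5 siRNA and 0.463 to 12.3 CPM after scramble siRNA, and 17 of the 18 did not pass the filter; the surface protein Thy1 did and rose (edgeR adjusted p = 0.00621). The part of lineage shares in the members' levels was not tested.

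Across the 10 scramble embryos, the members' levels (log2 CPM) were set against the mean log2 CPM of 12 primitive endoderm markers, none of them a member. Lama1 had Pearson's r = 0.856 (permutation p = 0.00138, two-sided, adjusted over the 10 members 0.0138) and Spearman's rho = 0.794 (permutation p = 0.00874, adjusted 0.0531). Col4a1 had r = 0.764 (permutation p = 0.0117, adjusted 0.0388) and rho = 0.770 (permutation p = 0.0121, adjusted 0.0531). Lamb1 had r = 0.748 (permutation p = 0.0116, adjusted 0.0388) and rho = 0.576 (permutation p = 0.0867, adjusted 0.173). These 3 passed by Pearson's r and 0 members passed by rho. The count rose with a prior count of 0.5 and with RLE scaling, and fell to 0 in other alternatives. The share of all genes that would pass the same test was not computed, so the count cannot be set against other genes. Of the other 7, 6 had r between 0.484 for Lamc1 and 0.707 for Col4a2, and Lama5 had r = -0.281 (permutation p = 0.435). Without scramble embryos 6 and 8, the 2 farthest from the median marker level, r was 0.667 for Lama1 (permutation p = 0.0728), 0.762 for Col4a1 (permutation p = 0.0197) and 0.200 for Lamb1 (permutation p = 0.637), and no member passed after adjustment; the relation of Lamb1 rested on those embryos. Without scramble embryo 6 alone, or scramble embryo 10 alone, no member passed either. Scramble embryos 5 and 6 stood apart, with the lowest mitochondrial shares (4.34% and 5.48%) and the lowest Col4a1 of the scramble group. In the 8 embryos without them, r was 0.728 for Lama1 (permutation p = 0.0447, adjusted 0.223), 0.381 for Col4a1 (permutation p = 0.361) and 0.374 for Lamb1 (permutation p = 0.361), and no member passed after adjustment. In the 6 Klf5 siRNA embryos r was 0.954 for Lama1, 0.841 for Col4a1 and 0.115 for Lamb1, given as a description.

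Among the members themselves, over the same 10 scramble embryos, Col4a1 and Col4a2 were the most alike (r = 0.909), followed by Lamc1 with Nid1 (r = 0.844) and Lamb1 with Nid1 (r = 0.840). Lama5 had a negative r with every other member, from -0.071 with Hspg2 to -0.305 with Serpinh1. These r were not tested and are small for 10 embryos. The r of Lama5 with the primitive endoderm level, -0.281, was 0.390 without scramble embryos 6 and 8. It was 0.157 without scramble embryos 5 and 6, and 0.319 in the Klf5 siRNA embryos. All of these points share library depth and the amplification of single-embryo RNA. Of 6596 genes with a mean of at least 10 CPM, the most like the mean of the members' standardised levels were Sf3b3 (r = 0.974), Prrc2b (0.934), Nr6a1 (0.922), Hormad1 (0.917), Sept11 (0.914) and Atp5g2 (0.910). These r were picked as the highest of 6596 over only 10 embryos and were not tested, so their size alone shows no link to the members. The 7 primitive endoderm markers in that ranking were spread over it, from Cubn at rank 98 (r = 0.817), Pdgfra at 340 (r = 0.721) and Gata6 at 1050 (r = 0.562) to Lrp2 at 2501 (r = 0.157), Sox17 at 3320 (r = -0.127), Dab2 at 3699 (r = -0.248) and Apoa1 at 6154 (r = -0.762).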

How the data were processed

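RNA was measured in 4 ESC and 16 embryo libraries. Per the submitters' processing notes, the authors used kallisto 0.46 and the build mm10, and deposited estimated counts per Ensembl gene in 2 tables; the annotation release and how transcripts were summed are not given in the sources used here. The estimated counts were rounded to whole numbers. Symbols, positions and exon lengths came from GENCODE M21 (29831 of 30265 IDs matched), promoter windows from RefSeq on GRCm38.p6.

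Each experiment was fitted separately: filterByExpr (lowest count 10), TMM scaling and robust quasi-likelihood tests in edgeR 4.0.16 on R 4.3.3, with Benjamini-Hochberg adjustment over all genes tested and a threshold of 0.05. CPM use TMM-scaled library sizes, and log2 CPM a prior count of 2. ESCs left 2 residual degrees of freedom and embryos 14. The fits were also run on simulated data that gave every gene the same dispersion and held no outlying embryos. Such data cannot show how the fits perform on embryos as uneven as these. Members and gene lists were chosen with earlier results of these data known. Named genes are Klf5, the members and the 6 genes most like the members' mean. Each list adds up to 4 called genes of smallest p (or the gene of smallest p). Gata6, Gata4, Sox17, Itgav, the ranked markers, the parietal endoderm markers beside Pth1r in ESCs and the epiblast markers not called in embryos were added after their values were seen. A gene this rule selects is not reported here.

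Alternatives were RLE and upper quartile scaling, DESeq2 1.42.0, voom in limma 3.58.1, no filter, a filter at 5 CPM, a gene-length offset, each library left out, a replicate block, covariates, embryos left out in pairs and, for the correlations, a prior count of 0.5. Replicate numbers were not taken as marking pairs in the main fits.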

Additional observations from a re-analysis of the deposited data

Results flagged for a closer look

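6 of 20 groups of values tested held an embryo whose gap to the nearest other embryo was large for the range of its group. The gaps were taken on CPM, not on log2 CPM. Several members also varied together across embryos, so the groups were not separate tests and no chance rate is given. All 6 were in the Klf5 siRNA group. In embryo 5, Col4a1 stood at 92.8 CPM (nearest other 31.5), Col4a2 at 100.5 CPM (25.5), Lamb1 at 106.8 CPM (52.3) and Hspg2 at 10.8 CPM (2.98). In the library labelled Klf5 siRNA embryo 1, Klf5 itself stood at 543 CPM and Lama5 at 92.3 CPM (nearest other 19.7). Serpinh1 was at 4.04 CPM there, with 0 in the other 5, so that its gap was the whole range by construction.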

How the results depend on the processing

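In ESCs, 444 genes were called, against 1435 with DESeq2, 281 with limma voom, 870 with no filter, 155 with the replicate block and 1475 with the crossed replicate block, an alternative added after the data were seen; leaving out 1 library gave 1 to 998. The count of members called, 1, became 2 with DESeq2, 0 with the length offset, 0 with the replicate block, 3 with the crossed block and 0 to 6 with 1 library left out. Same-numbered ESC libraries deviated from their group means with a correlation of -0.108, and same-numbered embryos with -0.114 to 0.108. The embryo values gave no sign of pairs. With 2 libraries per ESC group there is a single value, which cannot show whether the ESC numbers mark pairs. Lamb1 without 1 ESC library ran from -0.32 to 0.71 and Nid1 from -0.069 to 0.16 in log2 fold change.

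In embryos, 2447 genes were called, against 902 with the replicate block in 12 embryos and 1423 in those 12 without it. The count of members called, 1, became 2 with voom (Lama1 added), 0 with the mitochondrial share as a covariate and 1 to 2 with 1 embryo left out. Log2 fold changes that turned sign were those of Hspg2 (-1.43 with voom, -1.06 with the block, -0.020 without scramble embryos 5 and 6), Lama5 (0.17 with the length offset, 0.35 without Klf5 siRNA embryos 2 and 4), Lamb1 (0.30 with the length offset, 0.33 with the mitochondrial covariate), Sparc (0.32 without embryos 2 and 4) and Col4a2 (0.038 with the mitochondrial covariate). With 1 embryo left out, Hspg2 ran from -1.30 to 0.67, Lama5 from -1.31 to 0.12, Lamb1 from -0.53 to 0.047 and Sparc from -1.25 to 0.056. The median of all genes moved to -0.12 with voom and -0.13 with the block. Members that correlated with the primitive endoderm level, 3, became 6 with a prior count of 0.5, 8 with RLE scaling, 0 without the 2 farthest embryos, 0 without scramble embryos 5 and 6 (also added after the data were seen) and 0 to 5 with 1 embryo left out. Other members' directions held in all alternatives run, and the causes of these changes were not tested. For Serpinh1 and Hspg2 several embryo values lay under the floor of 3 counts.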
